A study of Arabidopsis thaliana with 15 samples.

Results

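Salt and mannitol both withdraw water from root cells, and many genes respond in the same direction to both. The 101 genes described here did the opposite. They are all the genes, of 24618 in the count table, whose level was higher after salt and lower after mannitol (40 genes) or lower after salt and higher after mannitol (61 genes). Members were chosen by their read counts in 12 libraries. Levels are in CPM, a gene's count per 1000000 counts of its library, and the response is log2((mean CPM treated + 1)/(mean CPM control + 1)). A member had a response of at least 0.8 in size in both treatments, with opposite signs, and all 3 treated libraries lay beyond all 3 controls each time. Under the same rule 1021 genes were higher after both treatments and 1010 were lower after both.

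The series is a bulk RNA-seq experiment on wild-type Arabidopsis thaliana, ecotype Col-0, with 5 groups of 3 libraries (replicates A, B and C). Seedlings were 6 days old and, in the methods, were harvested 3 h after treatment. The groups are mock, 150 mM salt, 250 nM flg22, 300 mM mannitol ("Manital" in the labels) and a control of its own for mannitol ("Control_mannital"). The mock libraries served as controls for salt and for flg22, and the mannitol libraries had theirs. The table heads the latter columns as a second mock group ("Mock2"), and they were assigned to the mannitol control because mock is the only other untreated group in the labels and has columns of its own, so every mannitol response rests on that assignment. For imaging, the methods give salt and flg22 in liquid medium and mannitol on agar plates with mock plates. The labels name the whole seedling as the tissue, whereas the methods name roots, pooled within a sample, and a higher flg22 dose. Whether the 3 samples of a group came from separate sowings is not stated, so spread between them may be partly technical.

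Library totals ran from 6094503 to 13943645 counts. The summed level of 14 shoot markers was between 65.3 and 397 CPM in all 15 libraries, and 4 guard cell markers together never reached 1 CPM (highest 0.980), whereas 6 endodermis markers summed to between 233 and 586 CPM. Shoot markers were lower in salt (65.3 to 154 CPM) than in mock (183 to 268 CPM), and overlapped between mannitol (144 to 181 CPM) and its control (164 to 198 CPM). Root epidermis and root hair markers (6 found of 7) were between 75.1 and 77.8 CPM in mannitol and between 142 and 197 CPM in its control. Root cap markers (2 found of 3) were between 22.7 and 25.9 CPM in salt against 91.2 to 123 in mock, and between 24.9 and 27.7 CPM in mannitol against 52.2 to 65.6 in its control. The endodermis markers were between 474 and 586 CPM in salt, 354 and 375 in mock and 237 and 247 in the mannitol control, so the untreated groups differed there as well. The part of these shifts in the members' values was not tested. In bulk RNA, fewer cells of a type and less RNA per cell cannot be told apart. Mock replicate B stood apart from mock A and C, among the members and over all genes, and its values are given where they matter. The chi-squared per degree of freedom between 2 replicates was 8.23 and 11.5 for mock B against A and C, and 3.76 for A against C. Other libraries stood apart as well. The values were 11.8 and 9.26 for salt C (2.87 for the other pair) and 8.21 and 9.38 for mannitol A (3.88). For flg22 A they were 6.56 and 6.20, against 3.41 for B and C.

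As background, roots under osmotic stress accumulate abscisic acid and switch on protective genes such as dehydrins, and salt adds an ionic load to the loss of water. Mannitol is a sugar alcohol that the plant hardly metabolises. Roots also make defence compounds in a tissue-specific way, among them triterpenes, phenylpropanoids and indole glucosinolates. Pattern-triggered immunity, which flg22 (a peptide of bacterial flagellin) elicits, raises WRKY factors and indole glucosinolate enzymes. Genes of sugar starvation and darkness respond to how much carbon a cell has. Of the members, 12 were assigned to specialised metabolism, 14 to defence and 11 to carbon and nitrogen status, and most others to transport, regulation, other enzymes or no known role. The list of the shared osmotic response held none. Of 32 abscisic acid and osmotic genes tested, 29 rose after salt and 29 after mannitol by edgeR's quasi-likelihood test, and 0 were members. A gene that rose after both treatments could not be a member, so this count follows largely from the rule.

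**Figure D1:**
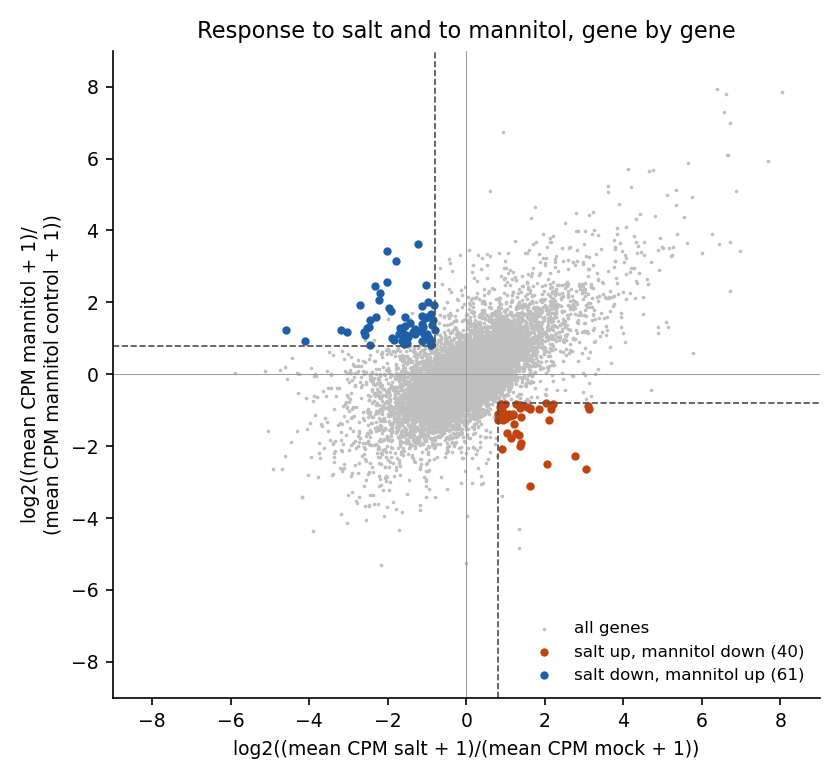
Response to salt (x axis, log2 ratio of mean CPM + 1) against response to mannitol (y axis, same scale) for all genes of the table. Grey points lie mostly along the rising diagonal, the 40 orange members lie to the lower right and the 61 blue members to the upper left of the dashed lines at 0.8 in size.

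The treatments started from different levels. For all 61 genes lower after salt, the 3 mannitol control libraries lay below the 3 mock libraries, beside 26.8% of the 18228 genes tested in both comparisons. For the 40 genes higher after salt, the mannitol control lay above mock in 37, beside 26.9% of genes, and overlapped it in 3. The median difference between the untreated groups, log2((mean CPM mannitol control + 1)/(mean CPM mock + 1)), was 2.47 in the first direction and -2.54 in the second, against a median size of 0.26 over the 18228 genes. These counts were not independent of the choice. The salt response minus the mannitol response equals the untreated difference plus the difference between salt and mannitol, so a rule that asks for opposite responses favours genes whose controls differ this way. No test of it was therefore made, and growth or handling that differed between the experiments cannot be told apart from the untreated difference.

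The treated levels lay between the untreated ones in most members. Both treated means fell between the mock mean and the mannitol control mean in 32 of the 40 genes and in 53 of the 61. The salt and mannitol libraries overlapped in 13 of the 40 and 25 of the 61. Salt lay wholly above mannitol in 17 of the 40 and 8 of the 61, beside 21.3% of all genes, and wholly below it in 10 and 28, beside 19.9%. The median size of the treated difference was 0.89 and 0.53 in the 2 directions. The treated difference was smaller than the untreated one in 89 of 101 members, and in 55.7% of the 18228 genes. The rule used all of these libraries, so the treated counts, like the untreated ones, are a description and nothing is read from their distance to the shares over all genes.

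**Figure D2:**
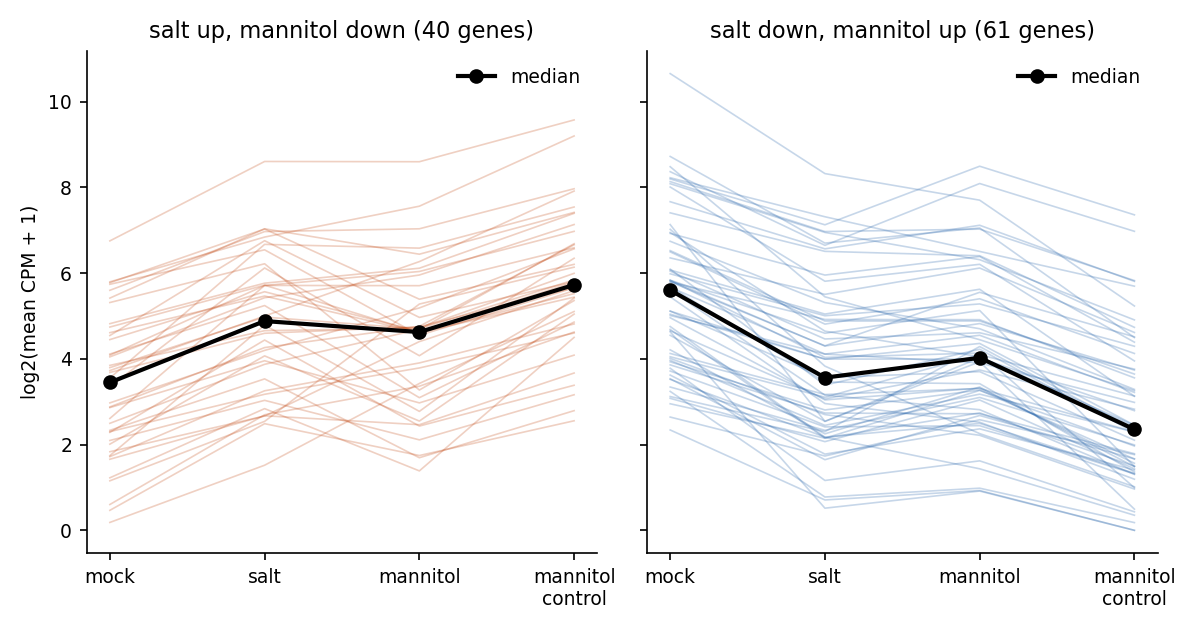
Mean level of each member, log2(mean CPM + 1) over 3 libraries, in mock, salt, mannitol and mannitol control, with 1 thin line a gene and the median in black. The median went from 3.45 in mock to 4.88 in salt on the left panel, where mannitol was at 4.63 and its control at 5.73, and on the right panel from 5.605 in mock to 3.56 in salt, with mannitol at 4.02 and its control at 2.36.

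Not every member met the criteria for a differentially expressed gene (DEG), namely a fitted log2 fold change of 1 or more in size with an adjusted p under 0.05 in edgeR's quasi-likelihood test. Of the 40 genes, 39 were DEGs higher after salt (background 9.59%) and 24 were DEGs lower after mannitol (background 7.46%). Of the 61, 41 were DEGs lower after salt (background 7.84%) and 57 were DEGs higher after mannitol (background 8.98%), with 3 too low to be tested there. Since the rule used these contrasts, the counts are a description. Over all genes tested, 72 were DEGs of opposite sign in both comparisons, and 61 of them were members.

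Among the 40 genes higher after salt and lower after mannitol, 12 belong to specialised metabolism. CYP705A12 and CYP71A16 lie 5662 bases apart on chromosome 5 in the marneral gene cluster, which makes a root triterpene, and CYP71A16 is the marneral oxidase. CYP705A12 (chr5:17023502-17025361, minus strand) was at 2.13, 2.78 and 2.13 CPM in mock, 20.8, 19.3 and 39.8 in salt, 47.1, 36.7 and 41.5 in the mannitol control and 8.64, 3.23 and 5.66 in mannitol. CYP71A16 was at 7.88, 11.6 and 8.04 CPM in mock, 50.3, 51.2 and 104 in salt, 76.9, 77.7 and 86.8 in the mannitol control and 17.95, 14.5 and 15.1 in mannitol. Both genes were lowest in mock, and mannitol lay between mock and salt. Salt C stood above the other salt libraries and reached the range of the mannitol control for CYP705A12 and exceeded it for CYP71A16. Their responses were 3.04 and -2.64 (salt, mannitol) and 2.77 and -2.27, and salt lay above mannitol without overlap. Genes of these clusters that are no members were looked up after the values were seen. The synthase gene of the marneral cluster, MRN1 (AT5G42600), was at 0.820, 0.817 and 0.0821 CPM in mock, 20.5, 13.7 and 84.8 in salt, 11.2, 7.32 and 11.2 in the mannitol control and 10.2, 6.11 and 4.64 in mannitol. Its response to mannitol was -0.45, short of the limit. THAS1, the thalianol synthase of a second triterpene cluster, passed both response limits (1.35 and -4.83), and its salt and mock libraries overlapped, which kept it out. Its 3 mannitol control libraries held 627, 718 and 767 CPM, against 14.9, 22.5 and 10.3 CPM in mock.

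Of the 3 sulfur members, LSU2 and LSU3 had the widest untreated differences of the 40 genes. The LSU genes respond to low sulfur, and ATSDI1 is a sulfur-deficiency gene that limits glucosinolate synthesis. LSU3 was at 0, 0.327 and 0.0821 CPM in mock, 2.74, 1.48 and 1.38 in salt, 28.5, 30.3 and 41.5 in the mannitol control and 12.3, 5.67 and 11.3 in mannitol. ATSDI1 was at 0.492, 0.817 and 0.246 CPM in mock, 5.70, 6.62 and 4.13 in salt, 16.4, 24.5 and 30.3 in the mannitol control and 13.2, 5.76 and 8.89 in mannitol. LSU2 was at 0.328, 2.45 and 0.903 CPM in mock, 5.70, 4.64 and 4.13 in salt, 57.7, 67.7 and 83.2 in the mannitol control and 44.1, 25.5 and 44.0 in mannitol. In each, the mannitol control exceeded every other group, mock was lowest of the 4, and mannitol exceeded salt apart from an overlap in ATSDI1. LSU3 lay under the floor of 3 counts in every mock library, with 0 counts in mock A, where 3 counts would be 0.492 CPM. Untreated differences were 4.92 for LSU3 and 4.98 for LSU2. Of 16 sulfur-deficiency genes tested after salt, 10 rose and 0 fell, with a median log2 fold change of 1.81 beside -0.01 over all genes. After mannitol 2 of 17 rose and 5 fell, with a median of -0.03 beside -0.02. The list included the 3 sulfur members, so these counts are not independent of the rule. LSU1, not a member, was at 27.5, 34.998 and 40.4 CPM in the mannitol control, 11.2, 6.98 and 9.75 in mannitol and 1.64, 2.27 and 1.26 in salt. LSU4, the other non-member of the family, was at 4.24, 3.23 and 4.83 CPM in the mannitol control and 5.604, 3.84 and 5.51 in mannitol, which overlapped, with a response of 0.23. APR2, a sulfate reductase gene, rose after salt (log2 fold change 2.09, edgeR adjusted p = 2.3e-05) and was at 0.39 after mannitol.

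Sequence upstream of 3 of these genes is shown to place matches to the core of the abscisic acid response element (ABRE core, ACGTG on either strand, also part of the G-box CACGTG). The core was found in the 250 bases before the annotated start of 16 of the 40 genes (40%), of 20 of the 61 (32.8%) and of 23.7% of 23435 protein-coding genes in the table. Capitals mark each match, lower case the rest, and the sequences are RefSeq's TAIR10.1 read on the gene's strand. A match is a description of the letters and not evidence of binding, and no test was made.
CYP705A12 (chr5:17025362-17025611, minus strand): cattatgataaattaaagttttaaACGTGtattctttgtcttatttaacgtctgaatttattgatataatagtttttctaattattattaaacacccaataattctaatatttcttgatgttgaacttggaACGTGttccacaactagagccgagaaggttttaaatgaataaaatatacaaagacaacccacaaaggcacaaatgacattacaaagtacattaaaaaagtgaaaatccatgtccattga
LSU3 (chr3:18373148-18373397, minus strand): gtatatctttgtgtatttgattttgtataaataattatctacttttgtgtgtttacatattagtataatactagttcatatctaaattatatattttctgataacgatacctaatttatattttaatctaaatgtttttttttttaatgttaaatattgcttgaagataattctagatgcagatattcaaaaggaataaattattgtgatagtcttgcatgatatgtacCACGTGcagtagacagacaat
ATSDI1 (chr5:19807854-19808103, minus strand): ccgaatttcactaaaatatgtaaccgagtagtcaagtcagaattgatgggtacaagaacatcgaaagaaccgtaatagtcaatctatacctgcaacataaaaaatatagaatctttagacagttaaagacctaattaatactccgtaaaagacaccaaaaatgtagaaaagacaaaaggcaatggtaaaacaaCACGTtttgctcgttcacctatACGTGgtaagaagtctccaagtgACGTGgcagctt
CYP705A12 held 2 matches. In LSU3 the 2 matches are the strands of a G-box whose first base lies 21 bases before the start. ATSDI1 held 3 matches within the last 57 bases. The NAC core CATGTG was in 9 of the 40 (22.5%) and 4 of the 61 (6.56%), and in 11.2% of all. In all, 16 motifs were searched and not all are listed. Several lay near or below the share of all promoters. The DRE core CCGAC was in 7.5% of the 40, 8.20% of the 61 and 12.3% of all, and the G-box in 7.5%, 3.28% and 7.05%. The GCC-box was in 0%, 1.64% and 1.83%, and the sulfur response core GAGAC in 30%, 23.0% and 25.6%.

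Phenylpropanoid and glycosyltransferase genes made up the next group. UGT84A1 and UGT84A2 glucosylate sinapate and related hydroxycinnamates, 4CL3 activates coumarate, and UGT78D1 adds rhamnose to flavonols. UGT84A1 was at 4.102, 9.48 and 5.50 CPM in mock, 19.4, 18.4 and 16.9 in salt, 87.4, 96.0 and 118 in the mannitol control and 30.6, 28.5 and 19.2 in mannitol. 4CL3 was at 10.2, 21.9 and 14.5 CPM in mock, 45.6, 40.6 and 39.9 in salt, 122, 156 and 140.0 in the mannitol control and 68.4, 60.5 and 54.5 in mannitol. UGT78D1 was at 1.805, 3.92 and 1.97 CPM in mock, 4.16, 5.24 and 6.65 in salt, 39.3, 53.9 and 48.5 in the mannitol control and 20.0, 18.5 and 21.9 in mannitol. For all 3 the mannitol control stood far above the rest, mannitol next, then salt, with mock lowest, although the salt and mannitol libraries of UGT84A1 overlapped. UGT84A2 and AT3G46700, another glycosyltransferase, had responses of 1.37 and -0.93 and 1.62 and -0.98. The list of 24 flavonoid and phenylpropanoid genes tested after salt had 12 higher and 1 lower, with a median of 1.0003. After mannitol 3 of 25 were higher and 3 lower, with a median of 0.03. The list included 2 members, so these counts are not independent of the rule. TT7, which hydroxylates flavonoids, fell after mannitol (log2 fold change -1.50, edgeR adjusted p = 6.8e-08).

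Other specialised-metabolism members were AT5G38020, a methyltransferase like those of salicylate, AT4G11190 and AT3G13650, dirigent-like proteins, LAC1, a laccase, and IGMT5. AT5G38020 was at 7.06, 21.9 and 7.80 CPM in mock, 34.96, 28.3 and 29.8 in salt, 228, 249.7 and 244 in the mannitol control and 84.4, 66.9 and 77.2 in mannitol. AT4G11190 was at 6.73, 3.59 and 3.61 CPM in mock, 8.55, 9.49 and 22.9 in salt, 90.7, 98.4 and 117 in the mannitol control and 27.9, 16.6 and 29.8 in mannitol. AT3G13650 was at 15.9, 13.6 and 9.19 CPM in mock, 23.7, 36.6 and 31.2 in salt, 51.3, 62.5 and 55.6 in the mannitol control and 30.7, 17.36 and 26.9 in mannitol. The 3 genes were each lowest in mock and highest in the mannitol control without overlap, and mannitol overlapped salt in the dirigent-like genes only. AT5G38020 lies next to another member, AT5G38030, a MATE efflux gene 3278 bases away with responses of 1.63 and -0.94. LAC1, with 0.81 and -1.27, was among the members closest to the limit.

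Transport genes numbered 9 and ranged more widely. GDU4, of the glutamine dumper family of amino acid export, was at 6.24, 8.66 and 5.66 CPM in mock, 19.1, 16.6 and 16.4 in salt, 74.1, 113 and 94.3 in the mannitol control and 36.5, 35.5 and 34.4 in mannitol. OCT6, an organic cation carrier, was at 17.2, 14.9 and 16.8 CPM in mock, 34.4, 44.6 and 31.8 in salt, 24.99, 29.5 and 29.5 in the mannitol control and 10.3, 5.06 and 7.31 in mannitol. In GDU4 the mannitol control lay above mannitol, mannitol above salt and salt above mock. In OCT6 the mannitol libraries lay below mock and the salt libraries above the mannitol control. AT1G72140, of the major facilitator superfamily, went from 6.07, 5.39 and 3.86 CPM in mock to 51.6, 68.6 and 34.3 in salt, and mannitol was at 61.1, 40.4 and 52.4 against a control of 106, 93.6 and 86.9. DTX35, a flavonoid-linked efflux carrier, also overlapped between salt and mannitol, with a treated difference of 0.01. PHT1;4, a phosphate uptake carrier, was at 43.3, 67.3 and 46.8 CPM in mock, 102, 103 and 71.7 in salt, 46.5, 51.8 and 50.4 in the mannitol control and 25.8, 21.3 and 20.1 in mannitol. CLC-B, an anion channel protein, was at 49.1, 56.0 and 56.5 CPM in mock, 135, 130.2 and 124 in salt, 74.6, 69.3 and 74.6 in the mannitol control and 49.2, 38.7 and 35.1 in mannitol. In PHT1;4 the untreated groups overlapped, and in CLC-B they differed by 0.43, so that both genes ended apart, with salt above mannitol by 1.995 and 1.64. Exons of CLC-B overlap genes on the other strand, and the libraries were not stranded, so some of its reads may be theirs. AT3G56200 and AT5G02170, amino acid carriers, had responses of 0.91 and -0.91 and 0.87 and -0.82.

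Salt and mannitol libraries did not overlap in most of the 40, with salt wholly above in 17 and wholly below in 10. In 8 of the 40 the difference between salt and mannitol exceeded that between the controls. Besides OCT6, PHT1;4 and CLC-B these were AT1G75590, a SAUR-like gene, AT3G59710, AT1G05650, a pectin lyase-like gene, CYP94B1, which oxidises jasmonate conjugates, and EDF3, an ethylene-response factor. AT1G05650 was at 32.8, 42.3 and 41.3 CPM in mock, 58.0, 69.0 and 93.6 in salt, 44.1, 36.1 and 40.1 in the mannitol control and 7.50, 11.4 and 7.08 in mannitol. Its untreated libraries overlapped, and salt and mannitol ended on opposite sides of them. AT1G75590 was at 2.95, 5.56 and 3.61 CPM in mock, 8.55, 10.6 and 12.6 in salt, 5.08, 5.81 and 6.88 in the mannitol control and 2.28, 2.62 and 1.81 in mannitol. CYP94B1 was at 26.6, 19.8 and 20.7 CPM in mock, 91.0, 135 and 95.2 in salt, 52.9, 51.9 and 59.7 in the mannitol control and 35.6, 25.2 and 30.0 in mannitol. The jasmonate list held 1 of the 40. Of its genes, 8 of 18 tested rose after salt and 0 fell, beside 9.59% and 7.84% of all genes. After mannitol 4 of 20 rose and 0 fell, beside 8.98% and 7.46%.

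Among the remaining genes of this direction, AT4G22610, a lipid-transfer-like protein, was at 2.30, 4.57 and 2.22 CPM in mock, 19.5, 16.3 and 11.6 in salt, 30.5, 30.3 and 35.2 in the mannitol control and 5.32, 3.58 and 5.66 in mannitol. AT4G37700, an uncharacterized protein, was at 1.805, 1.14 and 1.07 CPM in mock, 3.84, 5.24 and 9.40 in salt, 22.6, 17.57 and 24.8 in the mannitol control and 1.805, 1.31 and 1.73 in mannitol. AT3G61820, an aspartyl protease family member, was at 16.7, 27.1 and 18.7 CPM in mock, 38.4, 43.1 and 57.8 in salt, 46.1, 57.6 and 59.4 in the mannitol control and 20.4, 23.7 and 27.6 in mannitol. In these 3 genes salt lay above mannitol without overlap, and mannitol had returned to the range of mock or close to it. XTH32, a xyloglucan-remodelling enzyme of the cell wall list, was at 1.805, 3.104 and 1.97 CPM in mock, 9.64, 8.10 and 7.91 in salt, 21.1, 30.6 and 29.8 in the mannitol control and 16.1, 13.9 and 12.03 in mannitol. The list as a whole split, with 12 of 33 genes up and 8 down after salt and 11 of 32 up and 12 down after mannitol. Over all genes the shares were 9.59% up and 7.84% down after salt, and 8.98% and 7.46% after mannitol. NAI1, which governs ER bodies, and AT1G62975 are both basic helix-loop-helix factors, with responses of 0.95 and -1.28 and 3.12 and -0.96. AT2G41480, a cell wall peroxidase, had 0.85 and -0.91, HOS3-1, a membrane protein of the elongase family, 1.01 and -1.21, GolS3, a galactinol synthase, 2.02 and -0.81, AT3G15650, a hydrolase, 0.94 and -1.05 and AT4G18630 1.09 and -1.11.

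**Figure D3:**
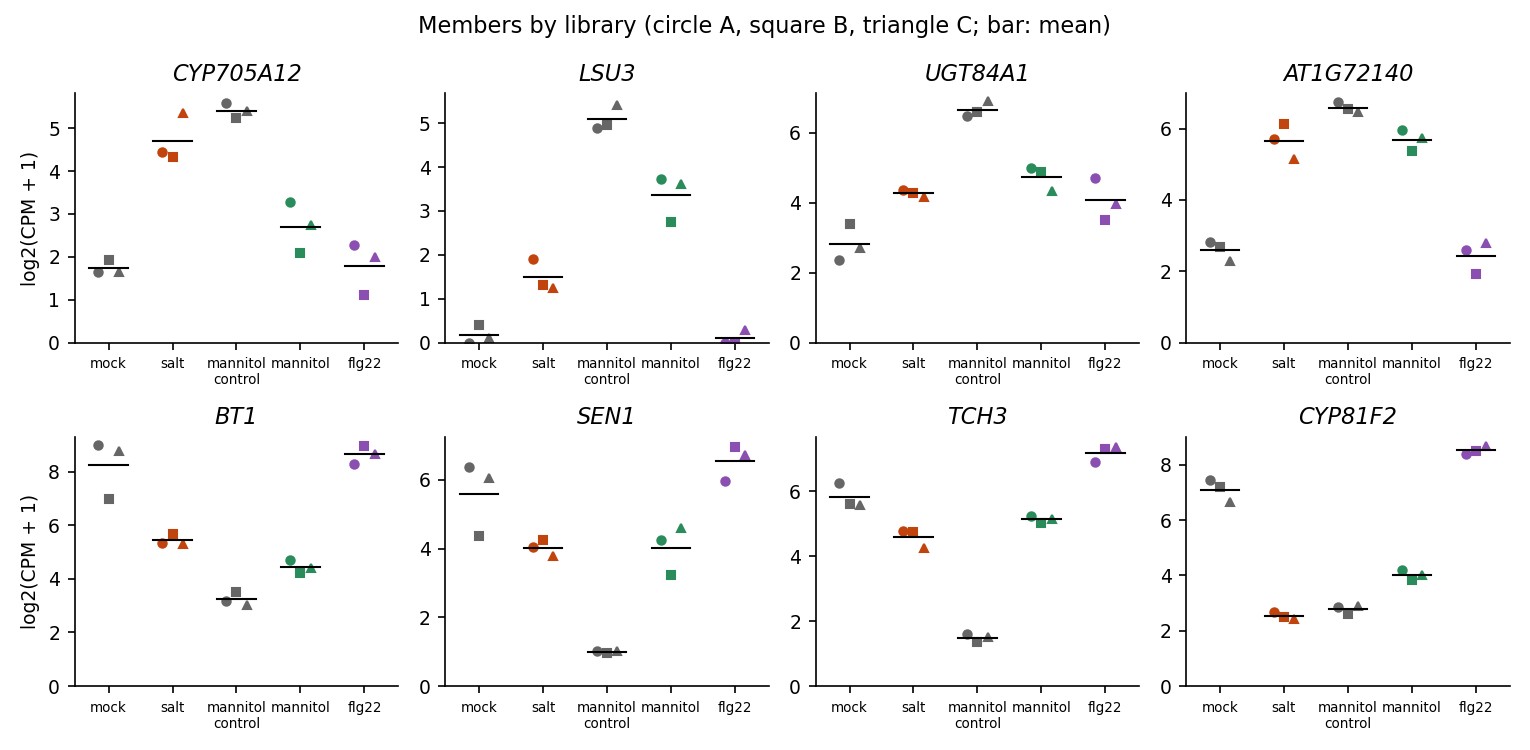
Level of 8 members in each library, log2(CPM + 1), with replicates A, B and C as circle, square and triangle and the mean of the log2 values as a bar. In the upper row the mannitol control has the highest mean and mock is the lowest of the 4 groups used by the rule, whereas in the lower row the mock mean stands above salt and mannitol, and for CYP81F2 flg22 stands at 332 to 413 CPM.

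The 61 genes lower after salt and higher after mannitol held a set tied to carbon and nitrogen status. As background, SEN1 is a dark-inducible gene, DYL1 marks dormancy, and BT1 and BT2 are nuclear BTB proteins that act on nitrogen use. GAT1_2.1 is a nitrogen-regulated glutamine amidotransferase. BT2 was at 345, 132 and 293 CPM in mock, 54.2, 66.1 and 45.2 in salt, 13.6, 20.2 and 9.65 in the mannitol control and 86.0, 58.5 and 74.2 in mannitol. BT1 was at 509, 126 and 436 CPM in mock, 39.8, 49.6 and 38.7 in salt, 8.05, 10.5 and 7.20 in the mannitol control and 24.8, 17.63 and 20.1 in mannitol. GAT1_2.1 was at 66.5, 20.9 and 63.9 CPM in mock, 9.64, 15.9 and 4.47 in salt, 2.37, 1.79 and 0.554 in the mannitol control and 12.9, 4.28 and 11.96 in mannitol. All 3 were high in mock, lowest in the mannitol control and intermediate after either treatment. In mock, replicate B lay far below A and C. Exons of GAT1_2.1 overlap genes on the other strand, and 37.0% of its 100-base windows are shared with them, so in these unstranded libraries some of its reads may be theirs. SEN1 was at 82.0, 19.6 and 66.1 CPM in mock, 15.6, 17.9 and 12.7 in salt, 1.02, 0.932 and 1.03 in the mannitol control and 18.05, 8.38 and 23.4 in mannitol. AT1G80380, a glycerate kinase of photorespiration, was at 580.4, 207 and 478 CPM in mock, 113, 127 and 70.0 in salt, 24.7, 22.4 and 17.65 in the mannitol control and 154, 115 and 127 in mannitol. The uncharacterised AT3G15450, an aluminum induced protein by annotation, was at 2088, 792 and 1960.5 CPM in mock, 354, 414 and 191 in salt, 49.5, 41.3 and 19.2 in the mannitol control and 242, 156 and 224 in mannitol. Salt and mannitol libraries overlapped in these 3 genes and in BT2 and GAT1_2.1, whereas for BT1 salt lay above mannitol.

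Sugar enzymes belonged to the same set. SIP2 breaks down raffinose, STS is a stachyose or raffinose synthase, TPS8 and TPS9 are trehalose phosphate synthase-like proteins, and ICL is the isocitrate lyase of the glyoxylate cycle. DYL1 had responses of -1.14 and 1.41, TPS8 -0.90 and 1.67, TPS9 -0.91 and 0.81, ICL -0.88 and 1.36, STS -1.84 and 0.96 and SIP2 -1.72 and 1.11. SIP2 was at 359, 235 and 394 CPM in mock, 122, 101 and 75.4 in salt, 151, 133 and 91.5 in the mannitol control and 279, 275 and 261 in mannitol, and its mannitol libraries overlapped mock. Over the 11 genes of the set the median salt response was -1.796 and the median mannitol response 1.41, and the median untreated difference was -3.18. Mock B was the lowest mock library in all 11. Without it the median salt response was -2.05 and the median untreated difference -3.47.

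Nitrate genes were spread over both signs. NRT1.8, which removes nitrate from xylem sap, was at 28.2, 9.31 and 36.8 CPM in mock, 3.51, 3.36 and 3.44 in salt, 3.05, 3.23 and 2.45 in the mannitol control and 8.64, 7.50 and 9.67 in mannitol. Like BT1 and BT2 it was on a nitrate response list, whose 29 tested genes had 2 up and 9 down after salt and 5 up and 3 down after mannitol, these 3 members included. Over all genes the shares were 9.59% up and 7.84% down after salt, and 8.98% and 7.46% after mannitol. NRT2:1, the high-affinity nitrate carrier of roots, was no member and fell after both (log2 fold change -4.41, edgeR adjusted p = 0.00033 after salt, and -5.37, edgeR adjusted p = 2.6e-10 after mannitol). TDT, the vacuolar malate carrier, had responses of -0.97 and 1.998, and its 3 mannitol libraries lay above its 3 salt libraries.

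Defence genes were the other large set, with 14 of the 61. WRKY33 and WRKY70 are defence transcription factors, MYB51 controls indole glucosinolates, CYP81F2 and the IGMT enzymes modify them, PBS3 acts in salicylate synthesis, and PROPEP3 encodes a danger peptide. Upstream sequences of 4 are shown because the W-box core (TTGAC on either strand), the letters WRKY factors recognise, was in 38 of the 61 promoters (62.3%), in 17 of the 40 (42.5%) and in 45.3% of all 23435. Capitals mark the matches, with the same source and window as above.
WRKY33 (chr2:16107985-16108234, plus strand): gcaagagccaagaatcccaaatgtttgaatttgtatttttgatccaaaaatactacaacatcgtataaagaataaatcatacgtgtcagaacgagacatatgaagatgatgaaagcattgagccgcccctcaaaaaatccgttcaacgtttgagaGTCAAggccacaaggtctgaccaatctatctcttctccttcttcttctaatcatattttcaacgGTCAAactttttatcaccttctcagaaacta
CYP81F2 (chr5:23187590-23187839, plus strand): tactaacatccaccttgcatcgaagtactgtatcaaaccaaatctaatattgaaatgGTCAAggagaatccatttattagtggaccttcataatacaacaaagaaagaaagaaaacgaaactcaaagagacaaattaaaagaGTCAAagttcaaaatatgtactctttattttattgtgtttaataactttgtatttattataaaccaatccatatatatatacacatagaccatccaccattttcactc
MYB51 (chr1:6389149-6389398, plus strand): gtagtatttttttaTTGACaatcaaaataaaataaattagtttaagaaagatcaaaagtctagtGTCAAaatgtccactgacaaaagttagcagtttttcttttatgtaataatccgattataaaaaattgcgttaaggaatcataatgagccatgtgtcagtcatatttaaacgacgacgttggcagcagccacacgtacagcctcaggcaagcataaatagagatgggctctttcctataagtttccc
WRKY70 (chr3:20910624-20910873, minus strand): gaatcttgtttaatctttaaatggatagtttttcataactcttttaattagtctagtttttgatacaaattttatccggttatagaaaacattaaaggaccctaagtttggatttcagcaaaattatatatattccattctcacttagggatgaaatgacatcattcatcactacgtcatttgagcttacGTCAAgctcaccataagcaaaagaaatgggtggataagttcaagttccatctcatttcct
WRKY33, CYP81F2 and MYB51 each held 2 matches and WRKY70 held 1. Of the same 16 motifs searched, the P1BS letters GNATATNC were in 10 of the 61 (16.4%), in 4 of the 40 (10%) and in 5.45% of all.

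CYP81F2 was at 173, 146 and 98.9 CPM in mock, 5.48, 4.64 and 4.36 in salt, 6.27, 5.09 and 6.41 in the mannitol control, 17.3, 13.4 and 15.1 in mannitol and 332, 361 and 413 in flg22. Its salt libraries overlapped the mannitol control, mannitol lay above both, and flg22 lay above every other library. MYB51 was at 43.0, 30.6 and 27.3 CPM in mock, 18.6, 17.0 and 9.18 in salt, 4.57, 3.73 and 5.14 in the mannitol control, 21.8, 17.36 and 19.5 in mannitol and 83.2, 105 and 126 in flg22. WRKY33 was at 88.8, 95.7 and 58.3 CPM in mock, 44.1, 48.1 and 41.2 in salt, 23.2, 22.4 and 25.01 in the mannitol control, 80.1, 59.7 and 65.9 in mannitol and 179, 215 and 226 in flg22. PROPEP3 was at 6.07, 8.33 and 5.83 CPM in mock, 3.07, 3.36 and 3.90 in salt, 2.37, 1.36 and 1.74 in the mannitol control, 6.08, 5.93 and 5.03 in mannitol and 25.9, 25.4 and 30.4 in flg22. In WRKY33 and PROPEP3 mannitol overlapped mock, whereas in MYB51 it overlapped salt, and in all 3 flg22 stood above every other library. For WRKY33 and PROPEP3 the salt response (-0.85 and -0.80) was close to the limit of 0.8.

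WRKY70 was at 43.3, 64.0 and 20.5 CPM in mock, 8.22, 7.51 and 4.59 in salt, 1.36, 1.79 and 0.712 in the mannitol control, 7.69, 2.53 and 4.01 in mannitol and 49.02, 41.3 and 46.3 in flg22. PLA2A, a lipid acyl hydrolase that accumulates on infection, was at 152, 179 and 56.6 CPM in mock, 12.2, 16.4 and 11.1 in salt, 1.61, 0.43 and 1.03 in the mannitol control, 4.18, 4.01 and 3.15 in mannitol and 188, 162 and 162 in flg22. AT5G41750, a TIR-type resistance protein, was at 60.4, 64.0 and 18.6 CPM in mock, 8.66, 8.30 and 6.77 in salt, 1.95, 1.43 and 1.03 in the mannitol control, 5.98, 6.46 and 5.66 in mannitol and 76.3, 62.0 and 84.8 in flg22. In these genes flg22 overlapped mock, and mock C was the lowest mock library. PBS3 was at 27.1, 35.5 and 8.78 CPM in mock, 0.438, 0.395 and 0.459 in salt, 0, 0 and 0 in the mannitol control, 1.71, 0.0873 and 0.865 in mannitol and 30.8, 22.9 and 32.0 in flg22. With the mannitol control at 0 counts, 3 counts over its 3 libraries would be 0.0782 CPM, so mock was at least 304-fold and mannitol at least 11.4-fold higher. Its mannitol B value rests on 1 count. AT4G11170 (RMG1) and AT1G66090, also TIR-type resistance genes, had responses of -2.58 and 1.08 and -2.46 and 0.80, MPK11, a MAP kinase, -2.62 and 1.19 and AT1G32928, annotated as rapidly elicited by Avr9/Cf-9, -1.01 and 1.11.

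The IGMT family stood on both sides of the rule. IGMT2 and IGMT4, 1990 bases apart on chromosome 1, were lower after salt and higher after mannitol, and IGMT5, on the same chromosome, was higher after salt and lower after mannitol. IGMT4 was at 81.5, 73.5 and 46.9 CPM in mock, 9.53, 8.20 and 10.7 in salt, 3.304, 3.87 and 4.43 in the mannitol control, 18.24, 17.8 and 17.1 in mannitol and 183, 205 and 219.7 in flg22. IGMT2 was at 106, 89.2 and 72.6 CPM in mock, 31.1, 25.7 and 24.4 in salt, 17.1, 15.3 and 17.0 in the mannitol control, 43.5, 43.3 and 37.1 in mannitol and 302, 359 and 386 in flg22. IGMT5 was at 41.8, 68.6 and 53.4 CPM in mock, 80.3, 116 and 145 in salt, 569, 606 and 589 in the mannitol control, 196, 145 and 223 in mannitol and 51.5, 32.3 and 41.3 in flg22. IGMT5 alone of the 3 had its highest level in the mannitol control, and its flg22 libraries overlapped mock. IGMT1 and IGMT3, their neighbours and no members, were lower after salt (-2.76 and -1.62), but after mannitol IGMT1 was lower (-2.76) and IGMT3 was at -0.03. Sequence is shared in the group. Of 100-base windows of the longest transcript, 21.4% in IGMT2 and 3.89% in IGMT4 occur in another IGMT gene, and 0% in IGMT5, so reads of IGMT2 may be lost or misassigned.

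**Figure D4:**
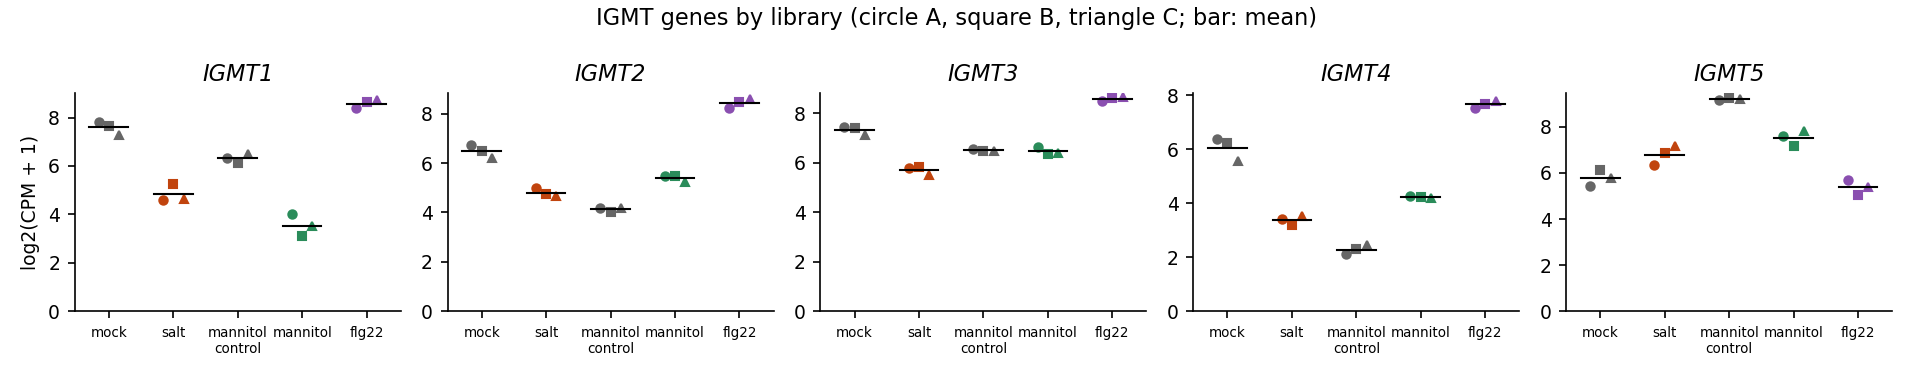
Level of the 5 IGMT genes in each library, log2(CPM + 1), with replicates A, B and C as circle, square and triangle and the mean of the log2 values as a bar. IGMT2 and IGMT4 are lowest in the mannitol control, and IGMT5 is highest there, at 569 to 606 CPM.

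The flg22 libraries were not used by the rule, although the mock libraries were. All 3 flg22 libraries lay above all 3 mock libraries in 22 of the 61 genes and in 3 of the 40, beside 8.27% of the 18228 genes. They lay below mock in 0 of the 61 and 2 of the 40, beside 16.8%. The median response to flg22 was 0.41 in the 61 genes, -0.03 in the 40 and -0.06 over all genes. By class, flg22 lay above mock in 7 of the 14 defence genes, 4 of 9 other regulators, 7 of 14 other enzymes and 1 of 11 carbon and nitrogen genes. Classes were assigned within each direction with earlier results known, and IGMT5 was placed in specialised metabolism and not in defence. So were AT4G11190 and AT3G13650, annotated as disease resistance-responsive (dirigent-like) proteins. No defence class was formed among the 40, so the place of defence genes in 1 direction follows partly from the assignment. Without mock B, an alternative chosen after seeing the data, the 22 became 27 and the 7 defence genes 10. With 1 library fewer such counts could only stay or rise, so nothing is read from these rises. Over the members of both directions, flg22 and mock did not overlap in 27 genes. That count became 34 without mock B, 37 without mock A and 40 without flg22 A. It became 35 without flg22 B, 30 without mock C and 30 without flg22 C. The median flg22 response of the carbon and nitrogen genes went from 0.20 to -0.01 without mock B.

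In the edgeR fit for flg22, 5 of the 40 were too low to be tested, LSU2, LSU3 and ATSDI1 among them. By the DEG criteria, 15 of the 61 and 1 of the 40 were higher after flg22 (background 0.823%), and 0 of either were lower (background 0.0329%). Besides the defence genes CYP81F2, IGMT2, IGMT4, MYB51, WRKY33 and PROPEP3 these were TCH3, ERF6, AT5G56960, AT1G33600, AT3G54150, DLAH, AT1G78830, DTX1 and AT1G05575, and in the other direction AT3G13650. The 15 became 10 without mock B, 8 without mock C, 7 without flg22 C and 5 without flg22 B. In the list of pattern-triggered defence genes, 14 of 29 rose after flg22 and 0 fell. After mannitol 13 of 26 rose and 0 fell, beside 8.98% and 7.46% of all genes. After salt 6 of 30 rose and 5 fell, PBS3 and CYP81F2 among the 5, beside 9.59% and 7.84%. This list held 5 of the 61, so its salt and mannitol counts are not independent of the rule. WRKY53 and WRKY40, which were no members, rose after mannitol (log2 fold changes 2.25 and 2.08, edgeR adjusted p = 7.8e-06 and 0.00028), and after salt WRKY40 rose as well (1.29, edgeR adjusted p = 0.0036).

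**Figure D5:**
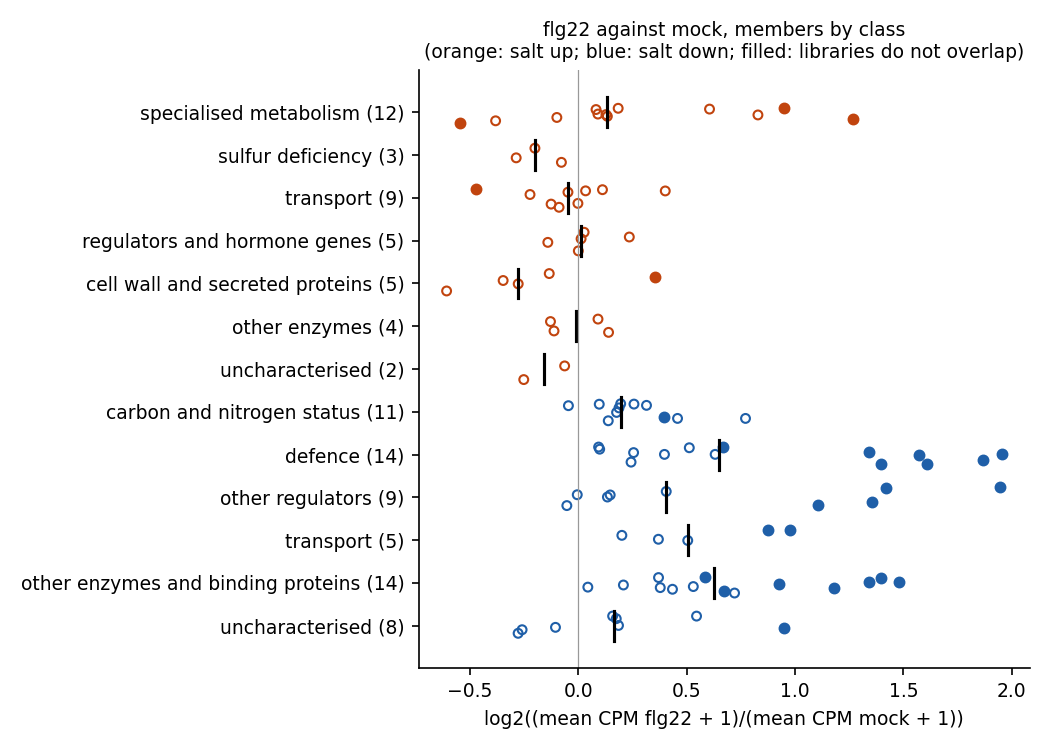
Response to flg22 (x axis, log2 ratio of mean CPM + 1 against mock) of the 101 members by class (number of genes in brackets), with filled points where the 3 flg22 and 3 mock libraries did not overlap and a black line at the class median. The defence median lies at 0.65 and the carbon and nitrogen median at 0.20.

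TCH3, a calmodulin-like protein induced by touch, had the highest response to mannitol of all members on the log2(mean CPM + 1) scale (3.64, beside 3.44 for CYP706A1). By edgeR's fitted log2 fold change CYP706A1 was higher (5.28, beside 4.37 for TCH3). TCH3 was at 75.0, 47.4 and 46.1 CPM in mock, 26.2, 25.6 and 17.9 in salt, 2.03, 1.58 and 1.82 in the mannitol control, 36.8, 31.2 and 34.1 in mannitol and 117, 155 and 163 in flg22. Its mannitol control was at most 2.03 CPM, and mannitol lay above salt and below mock. On the touch and calcium list, 10 of 18 genes tested rose and 2 fell after salt, beside 9.59% and 7.84% of all genes. After mannitol 12 of 19 rose and 2 fell, beside 8.98% and 7.46%. The list held 1 of the 61, so these counts are not independent of the rule. Exons of TCH3 overlap genes on the other strand. ERF6, an ethylene response factor, was at 28.7, 19.9 and 24.0 CPM in mock, 7.56, 7.61 and 6.996 in salt, 6.18, 5.45 and 6.65 in the mannitol control, 14.2, 9.60 and 13.3 in mannitol and 41.1, 59.0 and 59.7 in flg22. AT5G56960, a basic helix-loop-helix gene, held no count in the mannitol control, 0.708 to 1.04 CPM in mannitol, 0.344 to 0.791 CPM in salt and 3.37 to 4.76 CPM in mock. Mannitol was therefore at least 11.6-fold above the floor of its control.

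CYP706A1, a cytochrome P450, was at 34.6, 19.1 and 13.5 CPM in mock, 5.70, 5.34 and 3.44 in salt, 0.593, 0 and 0.633 in the mannitol control, 14.6, 14.3 and 13.8 in mannitol and 52.5, 70.7 and 70.1 in flg22. Mannitol reached the lower mock values, and flg22 exceeded mock. Of its 100-base windows, 39.9% also occur in AT4G22710, so this value may hold reads of either gene. PXMT1, a SABATH methyltransferase, was at 32.2, 42.6 and 15.6 CPM in mock, 7.999, 6.72 and 6.996 in salt, 1.78, 1.72 and 2.37 in the mannitol control and 8.83, 8.12 and 9.99 in mannitol. AT5G56100, an oleosin-like glycine-rich protein, was at 23.46, 6.86 and 22.2 CPM in mock, 5.15, 3.95 and 2.18 in salt, 1.69, 2.29 and 1.42 in the mannitol control and 10.4, 9.07 and 7.94 in mannitol. ATCTH, a zinc finger protein, was at 181, 46.6 and 139.8 CPM in mock, 23.56, 27.9 and 20.8 in salt, 3.22, 7.67 and 2.53 in the mannitol control and 17.7, 16.9 and 12.03 in mannitol. Salt lay above mannitol in ATCTH and below it in PXMT1 and AT5G56100. OXS3, a protein of oxidative stress tolerance, was at 43.0, 19.0 and 39.1 CPM in mock, 11.9, 12.4 and 8.14 in salt, 2.12, 5.95 and 1.82 in the mannitol control and 14.0, 9.42 and 12.7 in mannitol. MEE14 was at 142, 60.5 and 116 CPM in mock, 45.6, 44.9 and 25.9 in salt, 11.1, 9.75 and 5.46 in the mannitol control and 27.9, 23.0 and 24.2 in mannitol. In ATCTH, OXS3, MEE14 and AT5G56100 mock B was again the lowest mock library, and in PXMT1 the highest.

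The other members of this direction are given by their responses to salt and mannitol. Of these, DTX1 and J8, like AT3G15650 in the other direction, share 12.6%, 13.6% and 13.9% of their 100-base windows with overlapping or other genes. DLAH, a phospholipase, had -1.12 and 1.61, DTX1, a detoxifying efflux carrier, -1.05 and 1.58, PUP18, a purine permease, -0.98 and 0.99 and ACBP3, an acyl-CoA-binding protein, -1.64 and 1.24. J8, a chloroplast DnaJ protein, had -1.17 and 1.20, AT1G23390, a Kelch F-box protein, -1.53 and 1.09 and AT1G33600, a leucine-rich repeat protein, -0.82 and 1.93. AT1G78830, a lectin, had -1.10 and 1.31, AT1G30700, a berberine family oxidase, -1.07 and 1.13 and UGT85A1, a glycosyltransferase, -0.94 and 0.97. The last 2 and AT1G33600, with SIP2, were the 4 genes of this direction in which salt and mannitol differed more than the controls did. AT3G54150, AT5G38200, PGSIP7, AT5G60760, AT1G12790, AT1G78460 and AT2G35730 are annotated only by protein family, with responses between -1.89 and -0.90 for salt and between 0.81 and 1.17 for mannitol. AT4G32480 and AT1G77145 are annotated only as a putative sugar phosphate exchanger and a putative transmembrane protein. AT1G22890, AT5G65207, AT4G33980, AT3G45730 and AT1G05575 carry no named function in the RefSeq annotation used. The responses of all of these genes lay between -1.56 and -0.96 for salt and between 0.88 and 2.497 for mannitol.

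Mock B was the highest mock library in 29 and the lowest in 5 of the 40 genes, and the highest in 14 and the lowest in 34 of the 61, against 38.0% and 36.3% of 18523 genes at 1 CPM or more in mock. In the defence set it was the highest in 8 of 14 and in the carbon and nitrogen set the lowest in 11 of 11. Without it the rule gave 126 genes, 98 of them among the 101. At the limit of the rule, PROPEP3 (0.802), AT1G66090 (0.803) and PHT1;4 (0.804) were the members with the smaller response closest to 0.8, and AT5G67620 (0.798), AT3G07310 (0.789) and AT3G18250 (0.789) were the nearest genes outside. A further 19 genes passed the response limits, but their libraries overlapped in at least 1 comparison, among them THAS1, CYP705A5 and CYP708A2 of the thalianol cluster and BCAT-2, ATL8 and UGE3.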

How the data were processed

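RNA of wild-type Col-0 (roots in the methods, whole seedling in the labels) was sequenced in 15 libraries, 3 in each of 5 groups assigned from the sample labels. The authors deposited 1 table of read counts per gene, not normalized. Per the methods and processing notes, reads were trimmed with Trimmomatic, mapped against Araport11, stripped of duplicates with Picard and counted with HTSeq, and the libraries were not stranded. Removing duplicates lowers counts of the most abundant genes. Aligner version and HTSeq settings are not given in the sources used here. All count columns were mapped to a sample and 0 were left unused. The mannitol control columns carry a second mock heading and were assigned by elimination, since only 1 other untreated group is labelled.

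CPM used column totals (6094503 to 13943645 counts), so 3 counts were between 0.215 and 0.492 CPM. Members, gene lists and classes were chosen with earlier results of these data known. DEGs came from edgeR 4.0.16 (R 4.3.3; quasi-likelihood test, TMM, count minimum 10, 2 groups of 3 a fit, Benjamini-Hochberg), checked on simulated data, with DESeq2 1.42.0, other normalizations, no count filter, a replicate block and left-out libraries as alternatives. Members were part of the edgeR fits of the contrasts that chose them, so their calls there are a description and not a test of the members. P-values measure only the spread between these samples.

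Values in every library of mock, salt, mannitol and its control were given for the 12 members of each direction with the largest smaller response and for members on a pathway list. Values of the flg22 libraries were given for some members only, mostly genes of defence or higher after flg22. The other members were named by product or class, and those shown by library beyond this rule (among them OCT6, CLC-B, AT1G05650, AT3G61820, SIP2, PLA2A and MEE14) were chosen after their values were seen. Gene models, names and promoters (250 bases before the start) were RefSeq's TAIR10.1, and 23924 of 24618 IDs matched. Fold changes of edgeR and the responses on log2(mean CPM + 1) are different scales, and the second understates changes of low genes.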

Additional observations from a re-analysis of the deposited data

How the results depend on the processing

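The number of members depended on the threshold of the rule. At 1 in place of 0.8 there were 59 (18 higher after salt and 41 lower), and at 0.6 there were 170 (72 and 98). Other pseudocounts gave 114 (0.5) and 82 (2), TMM scaling 96 with 82 shared, DESeq2 size factors 99 with 78 shared, and no demand on overlap 120. Leaving out 1 library at a time gave 91 to 126 members, 35 to 50 in the first direction and 54 to 76 in the second. Untreated groups did not overlap in 98 members (98 to 99 without 1 library), treated groups in 63 (66 to 76), and flg22 and mock in 27 (30 to 40, and 31 with TMM). With 1 library fewer these counts could only stay or rise, so their ranges are no check of them. Of the members' responses over the alternatives, 2080 kept direction and side of the threshold, 136 fell short of it and 0 changed sign, with 6 not fitted. For left-out libraries and other pseudocounts the sign could not change, because the rule demanded libraries without overlap.

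The salt DEGs (3222) ranged from 2979 to 3471 and the mannitol DEGs (3114) from 3072 to 3332 without 1 library. The flg22 DEGs (156) ranged from 50 to 180. They were 66 without mock C, 53 without flg22 B and 50 without flg22 C. With the replicate block they were 71, with 6 of the 61 genes lower after salt among them in place of 15, against 3162 for salt and 3109 for mannitol. Libraries of the same letter did not deviate together (correlations between -0.26 and 0.09). Such correlations cannot tell whether samples of a letter were grown or harvested together, so pairing by letter is not settled. DESeq2 called 185 genes after flg22. Why these counts moved was not tested. Depth limits members with levels under 1 CPM in a group, which were 13.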
